A study of Mus musculus with 6 samples.

Results

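The vascular endothelial growth factor (VEGF) family genes described here were 9 of the 45792 genes counted in whole hearts of mouse embryos at embryonic day 13.5, namely the ligands Vegfa, Vegfb, Vegfc and Pgf, the receptors Kdr, Flt1 and Flt4 and the co-receptors Nrp1 and Nrp2. They were chosen by gene symbol, each matched exactly 1 row of the count table, and all 9 had enough counts to be tested. The study compared 3 control hearts, labelled wild-type, with 3 hearts labelled Tie2Cre INO80 flox/flox (here Tie2Cre;Ino80 fl/fl, or mutant), in which a recombinase driven by the Tie2 promoter was meant to remove exon 6 of Ino80, a chromatin remodeler gene, from endothelial and endocardial cells. The sample labels give the strain of all 6 as C57BL/6, whereas the study's methods describe transgenic mice on mixed backgrounds, embryos of both sexes that were not told apart, and controls of any genotype other than Tie2Cre;Ino80 fl/fl. Each library came from 1 heart, so that the spread between replicates is a spread between embryos.

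VEGF signaling is the main route by which blood vessels are told to sprout, survive and branch. VEGF-A, made largely by non-endothelial cells and induced by low oxygen, acts on endothelial cells through VEGFR2, the product of Kdr. VEGFR1, the product of Flt1, binds VEGF-A, VEGF-B and placental growth factor tightly and signals weakly, also as a soluble decoy. VEGF-C acts through VEGFR3, the product of Flt4, on lymphatic and sprouting endothelium. Neuropilins are co-receptors without a kinase of their own that also receive class 3 semaphorins, and Nrp2 is known above all from veins and lymphatic vessels. In the developing heart these genes guide coronary vessels from the sinus venosus and the endocardium into the ventricular wall.

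The libraries held between 28948836 and 89675692 counts, and TMM, which adjusts library totals for composition, scaled them by factors between 0.96 and 1.03. Values are given as TMM-scaled counts per M counts (CPM). The members were well covered, from 138 counts of Pgf in the shallowest case to 22358 counts of Nrp1. Ino80 itself stood at 31.5 ± 1.26 CPM (SD, n = 3) in control and 34.0 ± 2.35 CPM (SD, n = 3) in mutant hearts, so the groups overlapped in the count over the whole gene, and the direction of every difference rests on the labels. Defining markers of cardiomyocytes and endothelium were present in every heart, with a mean over hearts of at least 171 CPM for each of 14 cardiomyocyte genes and at least 17.6 CPM for each of 20 pan-endothelial genes. In whole hearts, fewer cells of a type and less RNA per cell cannot be told apart.

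Of the 9 genes, Nrp2 differed most between the groups. It was lower in mutant hearts at 0.71 times the control level, without overlap between the groups, while the other 8 lay between 0.86 and 1.11 times the control level. With edgeR's quasi-likelihood test and Benjamini-Hochberg adjustment over all 17125 tested genes, 0 of the 9 members passed an adjusted p of 0.05, as did 0.0% of all genes. At an unadjusted p under 0.05, 1 member was lower, against 9.98% of all genes lower and 9.48% higher. Among 9 members, 1 gene is near that share, so the count does not set the family apart. DESeq2, the tool the study's methods name, called the same 1 member, Nrp2, lower at an adjusted p under 0.05, against 3.26% of genes called lower and 2.52% called higher. In 2 members, Nrp2 and Pgf, every mutant heart lay below every control heart, a pattern found in 12.8% of all tested genes, and 14.3% had every mutant heart above. Although 8 members had a negative log2 fold change, against 50.3% of all genes, their median was only -0.11, beside -0.0017 over all tested genes.

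**Figure D1:**
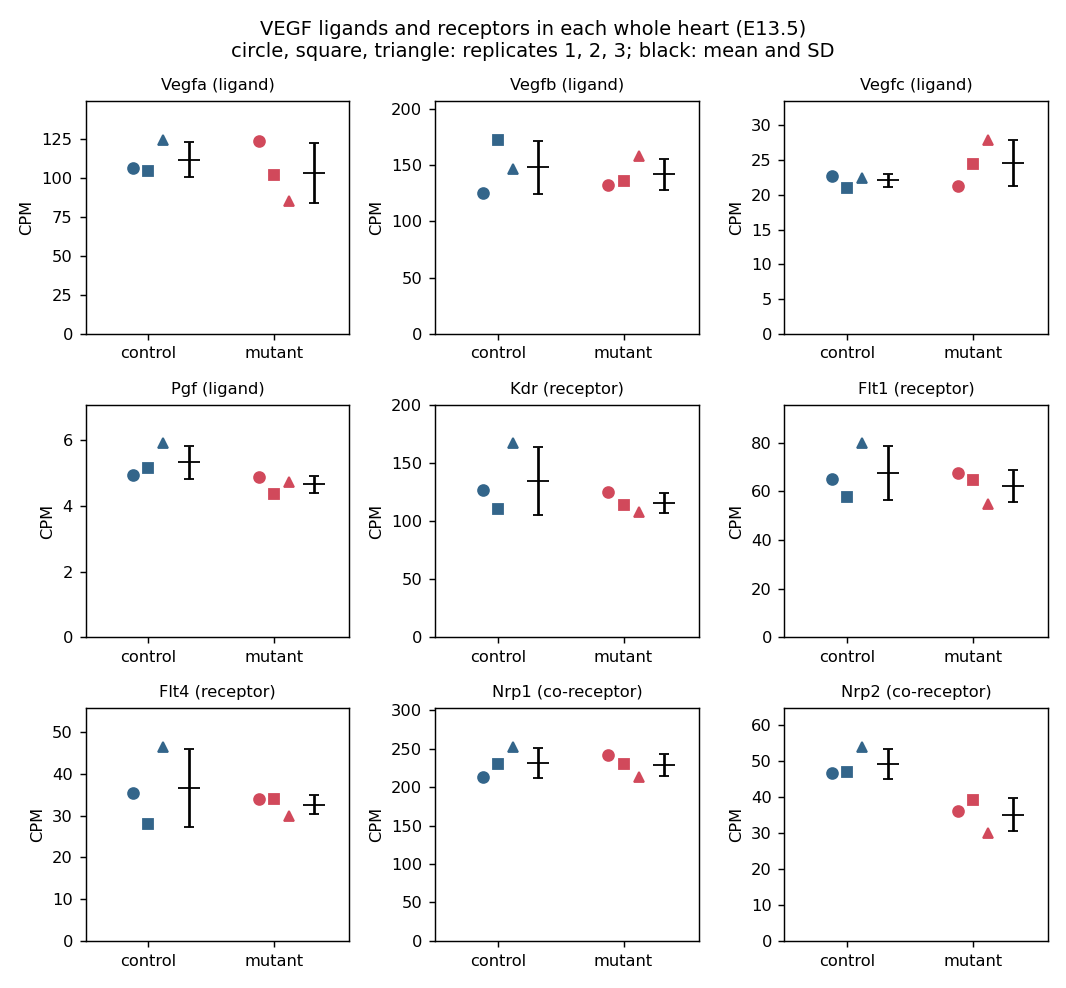
Level of each VEGF family gene in each heart, in TMM-scaled counts per M counts (CPM) on axes that start at 0, for 3 control (blue) and 3 mutant (red) hearts, with the mean and SD of each group in black. The groups separate for Nrp2, where controls lie at 46.7 CPM or above and mutants at 39.1 CPM or below, and narrowly for Pgf, and they overlap for the other 7 genes.

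To see how the ligands and receptors compare in amount, levels were divided by the length of each gene's merged exons. In control hearts Vegfb led with 92.3 ± 14.8 CPM per kb (SD, n = 3), followed by Vegfa with 26.0 ± 2.59 and Nrp1 with 23.7 ± 1.98 CPM per kb, whose ranges overlapped. Kdr stood next with 14.9 ± 3.24 CPM per kb and Vegfc after it with 9.01 ± 0.38 CPM per kb. Flt1, Flt4 and Nrp2 had similar levels, at 5.0 ± 0.83, 4.45 ± 1.13 and 4.16 ± 0.35 CPM per kb, each overlapping its neighbour, and Pgf was lowest with 1.83 ± 0.17 CPM per kb. The same order was found in mutant hearts, with 1 difference among neighbours: Flt4 at 3.96 ± 0.28 and Nrp2 at 2.97 ± 0.39 CPM per kb (SD, n = 3 each) no longer overlapped. Exon lengths came from a later annotation than the one used for counting, and the transcripts in use are not known, so the order is approximate.

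Among the ligands, Vegfa (chromosome 17, positions 46016993 to 46032369, GRCm38), a ligand of VEGFR2, was at 106, 104 and 124 CPM in control replicates 1 to 3 and at 123, 102 and 84.9 CPM in mutant replicates 1 to 3. The mutant hearts thus ranged from near the top of the control values to well below them. This gave a log2 fold change of -0.11 (SE 0.14, 95% interval -0.42 to 0.20, edgeR adjusted p = 0.68), so that these hearts leave room for a level between 0.75 and 1.15 times that of controls.

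Vegfb (chromosome 19, 6982473 to 6987651), a ligand of VEGFR1 that heart muscle makes in quantity, was at 125, 172 and 147 CPM in control and 132, 135 and 158 CPM in mutant hearts. All mutant values lay within the control range, and the log2 fold change was -0.06 (95% interval -0.35 to 0.22). Vegfc (chromosome 8, 54077606 to 54187096), a ligand of VEGFR3, was the 1 member with a positive difference. It was at 22.7, 21.0 and 22.5 CPM in control hearts and at 21.3, 24.5 and 27.9 CPM in mutant hearts, a log2 fold change of 0.15 (95% interval -0.10 to 0.40), with mutant replicate 1 inside the control range. Pgf (chromosome 12, 85166635 to 85177790), the placental growth factor gene, was scarce, at 4.94, 5.14 and 5.90 CPM in control and 4.88, 4.35 and 4.72 CPM in mutant hearts. Its groups did not overlap, but the nearest hearts differed by less than 0.1 CPM, and the log2 fold change of -0.19 had an interval from -0.52 to 0.13 (edgeR adjusted p = 0.46).

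Among the receptors, Kdr (chromosome 5, 75932827 to 75978458), often used as a marker of endothelium, was at 127, 110 and 167 CPM in control and 125, 114 and 108 CPM in mutant hearts. Control replicate 3 was far above the other 5 hearts, which lay close together. The log2 fold change was -0.21 (SE 0.14, 95% interval -0.55 to 0.12, edgeR adjusted p = 0.43), and -0.029 without control replicate 3.

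Flt1 (chromosome 5, 147561604 to 147726011), the decoy-like receptor, showed the same arrangement, with control hearts at 65.1, 57.7 and 79.7 CPM and mutant hearts at 67.4, 64.8 and 54.8 CPM. Flt4 (chromosome 11, 49609263 to 49652739), the VEGF-C receptor, did so too, at 35.4, 28.0 and 46.4 CPM in control and 33.9, 33.9 and 29.9 CPM in mutant hearts. In both genes control replicate 3 was highest of all hearts, and without it the log2 fold changes, -0.11 for Flt1 and -0.17 for Flt4, became 0.024 and 0.040. Their intervals with all hearts ran from -0.41 to 0.18 for Flt1 and from -0.55 to 0.22 for Flt4.

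Control replicate 3 was in fact the highest control heart for 7 of the 9 members, among them all 5 receptors and co-receptors. It also had the highest mean log2 CPM of the 20 pan-endothelial genes, at 6.08 beside 5.77 to 5.83 in the other 5 hearts. The part this plays in the receptor values was not tested. Kdr, Flt1 and Flt4 moved closely together from heart to heart: after centring log2(CPM + 1) of each gene on its mean, Kdr and Flt4 differed by a root mean square of 0.063 and Kdr and Flt1 by 0.076 over the 6 hearts, the smallest values among all pairs of members.

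**Figure D2:**
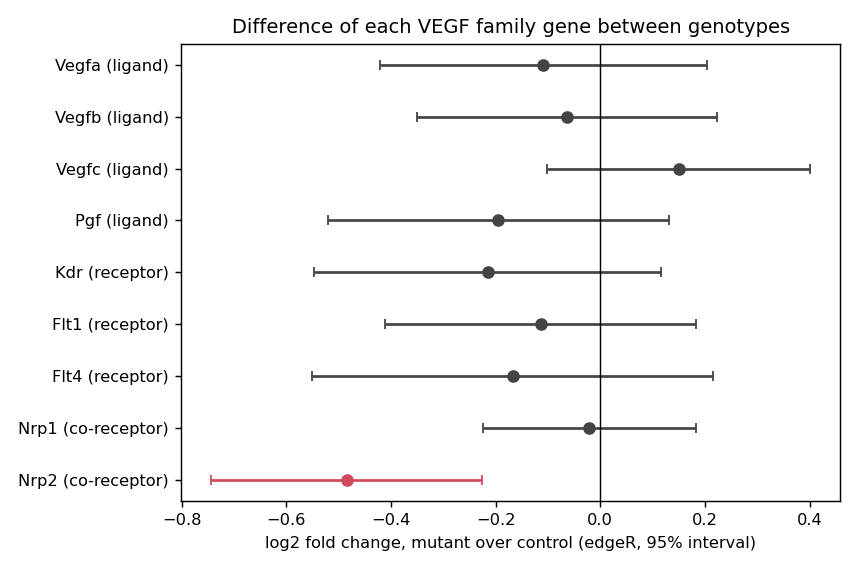
Log2 fold change of each VEGF family gene in mutant over control hearts from edgeR (points) with its 95% interval (bars), 3 hearts per group. The interval of Nrp2 (red) runs from -0.74 to -0.23, and those of the other 8 genes include 0.

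Nrp1 (chromosome 8, 128358604 to 128503363), the co-receptor that presents VEGF-A to VEGFR2, was the most evenly expressed member. It was at 213, 230 and 252 CPM in control and 242, 230 and 214 CPM in mutant hearts, and the groups overlapped almost completely. The log2 fold change was -0.02 (SE 0.09), with a 95% interval from -0.22 to 0.18, the narrowest of the 9 members, so that a change beyond 0.86 or 1.14 times the control level lies outside it.

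Nrp2 (chromosome 1, 62703285 to 62818695), its paralogue and the co-receptor of VEGF-C and class 3 semaphorins, was at 46.7, 47.0 and 53.9 CPM in control hearts and at 36.2, 39.1 and 30.1 CPM in mutant hearts. Every mutant heart lay below every control heart, and mutant replicate 3 was lowest. The means were 49.2 ± 4.09 and 35.1 ± 4.62 CPM (SD, n = 3 each), and the log2 fold change was -0.48 (SE 0.11, 95% interval -0.74 to -0.23, edgeR adjusted p = 0.10). By p it ranked 425th of 17125 tested genes. DESeq2 gave a log2 fold change of -0.49 with an adjusted p of 0.0074. The call therefore depended on the tool, and it also depended on the filter, since edgeR gave an adjusted p of 0.033 without the filter on low counts. With DESeq2 it was lost without control replicate 3 (adjusted p = 0.071 from DESeq2) and held without any 1 of the other 5 hearts. In edgeR fits without 1 heart the log2 fold change stayed between -0.57 and -0.38.

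To compare the paralogues at the sequence level, the RefSeq promoter windows of GRCm38.p6, from 250 bases before to 50 after the start of transcription, are shown for Nrp2, the member that differed most, and for Nrp1, which was even. The Nrp2 window is chr1:62703067-62703366 and the Nrp1 window chr8:128358823-128359122, both on the plus strand and written 5′ to 3′, with CpG dinucleotides in capitals.
Nrp2: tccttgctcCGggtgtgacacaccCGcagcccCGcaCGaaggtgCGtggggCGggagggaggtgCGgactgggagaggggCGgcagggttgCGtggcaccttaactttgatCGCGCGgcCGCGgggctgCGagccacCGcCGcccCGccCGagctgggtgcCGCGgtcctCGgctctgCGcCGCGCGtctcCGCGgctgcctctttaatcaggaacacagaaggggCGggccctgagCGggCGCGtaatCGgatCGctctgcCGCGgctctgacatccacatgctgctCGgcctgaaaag
Nrp1: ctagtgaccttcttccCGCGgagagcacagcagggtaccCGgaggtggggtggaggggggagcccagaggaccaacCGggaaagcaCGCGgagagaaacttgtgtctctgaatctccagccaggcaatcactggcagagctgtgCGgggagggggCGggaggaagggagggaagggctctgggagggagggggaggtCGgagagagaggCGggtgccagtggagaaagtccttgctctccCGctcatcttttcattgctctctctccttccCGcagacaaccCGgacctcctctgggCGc

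The Nrp2 window holds 37 CpG and is 70.7% G and C, and the Nrp1 window holds 14 CpG and is 64.0% G and C. Windows of 300 bases with at least 37 CpG make up 5.58% of the 32851 promoter windows in the table, and those with at least 14 make up 36.3%. All 9 members had a window, 11 in total, since Vegfa and Pgf have 2 each. Both strands were searched for the E2F motif (TTTCCCGC or TTTGGCGC), the hypoxia response core ACGTG, an ETS motif CCGGAA and a GATA motif AGATAA, which occur in 1.56%, 19.6%, 14.9% and 11.2% of all windows. The E2F motif was in none of the 11 windows. The ETS motif was found in that of Kdr, the GATA motif in 1 window of Vegfa and the hypoxia core in the other, and none of the motifs in those of Nrp1 and Nrp2. These are matches of letters in a short window and say nothing about binding.

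Ratios between members within a heart do not depend on how libraries are scaled. The log2 ratio of Nrp2 to Nrp1 was -2.19, -2.29 and -2.22 in control replicates 1 to 3 and -2.74, -2.55 and -2.83 in mutant replicates 1 to 3, so that Nrp2 amounted to 0.21 of the Nrp1 count in control hearts and 0.15 in mutant hearts. The means were -2.24 ± 0.05 and -2.71 ± 0.14 (SD, n = 3 each), and the groups did not overlap (two-sided exact permutation p = 0.1, the lowest attainable with 3 hearts a group, and 0.70 after Benjamini-Hochberg adjustment over 8 ratios). The other 7 ratios overlapped between the groups. Against Kdr, the log2 ratio was -0.99 ± 0.07 in control and -0.90 ± 0.08 in mutant hearts for Flt1, and -1.89 ± 0.08 and -1.83 ± 0.07 for Flt4 (SD, n = 3 each). The balance of the 3 receptor tyrosine kinases thus differed by 0.09 or less on the log2 scale, about the spread between replicates. For the ligands, the ratio of Vegfc to Vegfa was -2.33 ± 0.12 in control and -2.06 ± 0.46 in mutant hearts (SD, n = 3 each), with mutant replicate 3 at -1.60 and mutant replicate 1 at -2.53, beyond the controls on either side. Its difference of 0.27 was 0.040 without mutant replicate 3 and 0.505 without mutant replicate 1.

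Levels were next set against the endothelial content of each heart, as the mean log2 CPM of the 20 pan-endothelial genes, which was 5.89 ± 0.17 in control and 5.83 ± 0.0037 in mutant hearts (SD, n = 3 each). Relative to that mean, Nrp2 stood at -0.27, -0.21 and -0.33 in control and at -0.65, -0.53 and -0.92 in mutant hearts. The difference of -0.43 was close to that before scaling and the groups did not overlap (two-sided exact permutation p = 0.1, the lowest attainable, 0.50 adjusted over 5 genes). Kdr, Flt1, Flt4 and Nrp1 overlapped on this scale, with differences of -0.13, -0.045, -0.077 and 0.043. The 4 ligands, set against the mean of 14 cardiomyocyte genes, overlapped as well, with differences from -0.11 for Pgf to 0.23 for Vegfc.

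**Figure D3:**
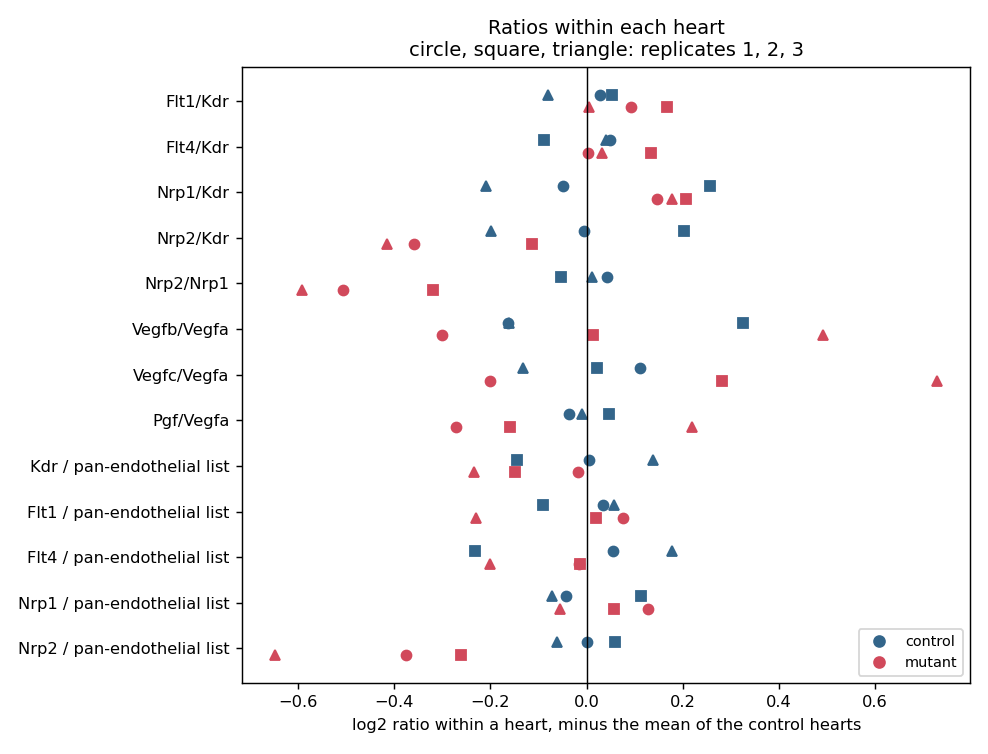
Log2 ratios within each heart, shifted so that the mean of the control hearts is 0, for pairs of VEGF family genes and for receptors against the mean of 20 pan-endothelial genes, with 3 control (blue) and 3 mutant (red) hearts. Mutant hearts lie apart from all control hearts for Nrp2 over Nrp1 and for Nrp2 over the pan-endothelial list, and the groups overlap in the other rows.

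Nrp2 is expressed in several cell types, so it was also set against markers of each. Relative to the endocardial, cardiomyocyte, epicardial and macrophage lists, 4 of 8 further lists, Nrp2 was lower in mutant hearts without overlap, with differences of -0.83, -0.41, -0.65 and -0.62 on the log2 scale. The endocardial list was itself higher in mutant hearts without overlap, by 0.34. The cardiomyocyte, epicardial and macrophage lists differed by -0.08, 0.16 and 0.13, with overlap. Relative to the other 4, the coronary and capillary endothelial, lymphatic endothelial, mural and erythroid lists, the groups overlapped, with differences of 0.24, 0.28, 0.035 and -0.093. The first 3 of these lists were themselves lower in mutant hearts without overlap. The lymphatic list had a mean log2 CPM of 3.42, 3.84 and 3.53 in control and 2.64, 3.09 and 2.75 in mutant hearts, the mural list ranged from 5.61 to 6.26 in control and from 5.35 to 5.47 in mutant hearts, and the coronary and capillary list from 3.77 to 4.51 and from 3.37 to 3.53. The part of any of these lists in the level of Nrp2, or in its relative values, was not tested.

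Within the lymphatic list, 3 of 6 genes carried the difference. Ccl21a, a chemokine of lymphatic endothelium, was at 4.78, 13 and 8.74 CPM in control and 0.32, 1.93 and 0.75 CPM in mutant hearts (log2 fold change -3.19, SE 0.62, edgeR adjusted p = 0.083). Mmrn1, which encodes an extracellular protein of lymphatic vessels, was at 4.44, 9.19 and 6.76 CPM in control and 2.48, 3.81 and 3.28 CPM in mutant hearts, and DESeq2 called both lower. Lyve1, a hyaluronan receptor that macrophages share, was lower at an unadjusted p under 0.05 with a log2 fold change of -0.45. Prox1, the lymphatic master regulator that cardiomyocytes also express, Pdpn and Reln differed by 0.07 or less, and Flt4 is given above.

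The rest of the VEGF pathway was examined as lists of genes, described by counts, with no gene past an adjusted p of 0.05 in edgeR in any list. Of 34 tested genes of VEGF signal transduction, 13 were higher and 21 lower in mutant hearts with a median log2 fold change of -0.04, and an unadjusted p under 0.05 was reached by 2 higher and 2 lower genes. Over all tested genes 9.48% were higher and 9.98% lower at that level, and these counts do not exceed those shares. The kinase genes Prkcb and Src were higher, with log2 fold changes of 0.61 and 0.34, and Yes1, another Src family kinase, and the adaptor Nck1 were lower, with -0.23 and -0.21. DESeq2 called 1 of them, Prkcb. Plcg1, a phospholipase gene directly downstream of VEGFR2, had a log2 fold change of 0.15.

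Among 19 genes known to respond to VEGF, 6 were higher and 13 lower, with a median of -0.07, and an unadjusted p under 0.05 was reached by 1 higher gene and 4 lower ones. At that level 9.48% of all tested genes were higher and 9.98% lower. Angpt2, an antagonist of the Tie2 receptor made by sprouting endothelium, was at 2.0, 2.69 and 7.38 CPM in control and 1.49, 1.22 and 1.03 CPM in mutant hearts. Its log2 fold change was -1.66 (SE 0.47, edgeR adjusted p = 0.14). Nrarp, a Notch feedback gene, was at 7.57, 9.97 and 8.77 CPM in control and 4.0, 5.24 and 5.61 CPM in mutant hearts, a log2 fold change of -0.83. DESeq2 called these 2 lower. Apln and Adamts9 had log2 fold changes of -0.36 and -0.29, and Unc5b, a netrin receptor of endothelium, one of 0.21. The tip cell genes Dll4 and Esm1 and the immediate early gene Egr3 had log2 fold changes of -0.08, -0.16 and -0.05, and none had an unadjusted p under 0.05.

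Of 21 genes for VEGF processing, heparan sulfate synthesis and receptor trafficking, 15 were higher and 6 lower, with a median log2 fold change of 0.15 and an unadjusted p under 0.05 in 4 higher and 0 lower genes. The shares of all tested genes at that level were 9.48% higher and 9.98% lower. The mean log2 CPM of the list overlapped between the groups, at 5.40 to 5.71 in control and 5.67 to 5.72 in mutant hearts. The 4 genes were Ext1 and Hs6st1, which build and modify heparan sulfate, Efnb2, an ephrin that promotes uptake of VEGF receptors, and the phosphatase gene Ptpn1, with log2 fold changes from 0.17 to 0.24. DESeq2 called 0 of them. Figf, which encodes the ligand VEGF-D, was at 3.15 ± 0.81 CPM in control and 3.56 ± 0.36 CPM in mutant hearts (SD, n = 3 each). Of 12 semaphorin and plexin genes that signal with neuropilins, 2 were higher at an unadjusted p under 0.05, Plxna3 with a log2 fold change of 0.49 and Sema3c with 0.40, 0 were lower, and DESeq2 called 0.

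Since Vegfa is induced by low oxygen, regulators and other targets of the hypoxia response were listed beside it. Vegfa did not separate the groups. Of 10 hypoxia regulators, 2 were higher and 4 lower in mutant hearts without overlap, and of 15 hypoxia-induced genes 0 were higher and 4 lower. Over all tested genes 14.3% were higher and 12.8% lower without overlap. The hypoxia-induced genes that separated were all lower, and whether their share exceeds that of all genes was not tested. Egln3, an oxygen-sensing prolyl hydroxylase gene that is itself induced by hypoxia, was at 48.0, 56.3 and 60.0 CPM in control and 25.5, 25.5 and 18.0 CPM in mutant hearts, a log2 fold change of -1.25 (SE 0.15, edgeR adjusted p = 0.065, DESeq2 adjusted p = 9.6e-12). Ndrg1, a hypoxia-induced gene, was at 26.7, 43.8 and 36.1 CPM in control and 20.3, 13.9 and 11.1 CPM in mutant hearts, a log2 fold change of -1.22.

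Of the 10 hypoxia regulators, 5 reached an unadjusted p under 0.05 (all tested genes: 9.48% higher, 9.98% lower), 1 of them higher and 4 lower. The 4 were Egln3, Hif3a, Egln1 and Epas1, the last encoding HIF-2alpha of endothelium, with log2 fold changes of -0.51, -0.28 and -0.29 for the latter 3, and the 1 was Arnt2, with 0.99. Of 15 hypoxia-induced genes, 3 were lower and 0 higher, namely Ndrg1, Pdk1 and Adm, while Slc2a1, Pgk1 and Ldha, textbook targets of the same factors, had log2 fold changes of 0.34, 0.016 and -0.0079. DESeq2 called 2 regulators and 2 induced genes lower and 1 regulator higher.

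**Figure D4:**
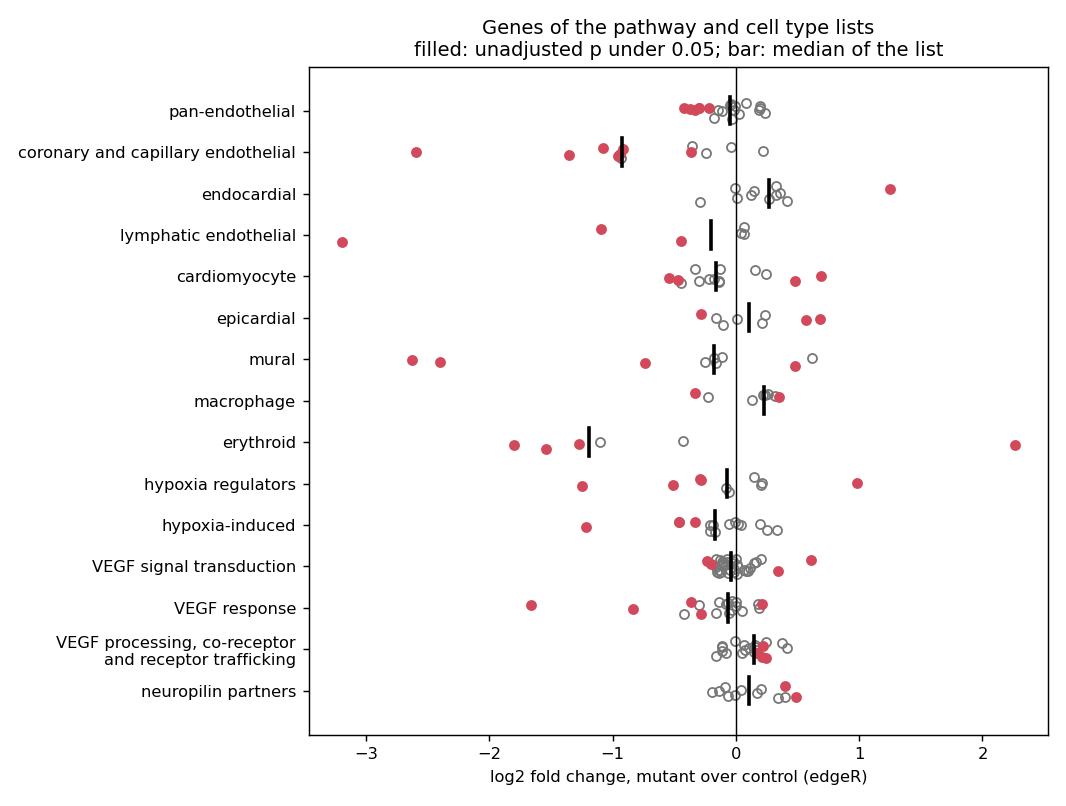
Log2 fold change in mutant over control hearts from edgeR for each tested gene of 15 lists, with genes at an unadjusted p under 0.05 filled and the list median as a bar. The VEGF signal transduction genes cluster around a median of -0.04, the lymphatic list spreads down to -3.19, and 0 genes passed an adjusted p of 0.05.

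The receptors can be read beside 3 lists of endothelial genes. Of 20 pan-endothelial genes, an unadjusted p under 0.05 was reached by 0 in the higher and 5 in the lower direction, namely Esam, Cd34, Fli1, Icam2 and Sox18, with log2 fold changes from -0.22 to -0.42, and DESeq2 called Esam and Cd34. Among all tested genes 9.48% were higher and 9.98% lower at that level. The coronary and capillary list had 7 of 12 genes lower at that level with a median log2 fold change of -0.93. Its mean log2 CPM was 3.77 in control replicate 1, nearer to the mutant hearts (3.37 to 3.53) than to control replicates 2 and 3 (4.51 and 4.25). The endocardial list had 1 of 11 higher at that level, Hapln1, a share near that of all genes. By sign, 9 of its genes were higher and 2 lower, where 50.3% of all genes were lower, and the median was 0.27. Its mean log2 CPM was higher in mutant hearts without overlap, by 0.34. Here too control replicate 1, at 4.67, lay nearest to the mutant hearts (4.71 to 4.77), beside 4.1 and 4.4 in the other controls. Without control replicate 1 the log2 fold change of Nrp2 was -0.52. The log2 fold changes of Kdr, Flt1 and Flt4 lay between these medians. So did the median of all tested genes, -0.0017, so this position does not set the receptors apart.

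Finally, the genes whose pattern over the 6 hearts was most like that of each member were sought among 11779 genes with a mean of at least 5 CPM, by the root mean square difference of centred log2(CPM + 1). Antxr1 and Pak3 were nearest to Nrp2, at 0.059 and 0.077, where Nrp2 itself varied by 0.27 about its mean. Shroom4 was nearest to Kdr, at 0.038, and Kdr was the second nearest gene to Flt4, at 0.063, after Col12a1. Atp11a was nearest to Pgf, at 0.012, Tmcc3 to Flt1, at 0.027, and Kdm2a to Nrp1, at 0.015. For the other ligands, Mob3c was nearest to Vegfa, at 0.043, Tfeb to Vegfb, at 0.031, and Sec61b to Vegfc, at 0.028. With so many genes and so few hearts, close matches are found for any gene, and these are descriptions.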

How the data were processed

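The mRNA of 6 whole hearts was sequenced as 76 bp paired-end reads, with library preparation by the NEBNext Ultra kit. The authors aligned reads to GRCm38 with STAR 2.4.2a and counted them per gene with summarizeOverlaps against GENCODE vM6. The deposited values used here are raw counts per gene. The strand and overlap settings of the counting are not given in the sources used here, and reads of genes that overlap Nrp1 or Nrp2 may be shared. A second deposited table holds the authors' own DESeq2 comparison. Its gene symbols, joined by gene identifier, named the genes and so chose the members, and its fold changes and p-values were not used.

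Groups came from the genotype labels. Genes were filtered with filterByExpr, scaled by TMM and compared in edgeR 4.0.16 (R 4.3.3) with the quasi-likelihood test on condition, with Benjamini-Hochberg adjustment over 17125 genes. DESeq2 1.42.0 was the alternative tool. Both were tested on simulated data: with 200 genes changed 1.5-fold, edgeR recovered 20.0% and DESeq2 46.5%. In the same simulation edgeR also called 5 unchanged genes and DESeq2 44, so DESeq2 gained calls at the cost of more false ones. Ratios used log2 CPM with a prior count of 2 and exact two-sided permutation tests over hearts. Gene positions and exon lengths came from GENCODE vM21 on GRCm38, matched by gene identifier.

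The members and gene lists were chosen with earlier results of these data known, and the lists were compiled from general knowledge. Named genes were all members, the list genes at an unadjusted p under 0.05 (at most 6 a list) and the 2 nearest genes per member. List genes named without passing that level were chosen after their values were seen. Counts per gene do not tell apart isoforms such as soluble Flt1. Libraries of 28948836 to 89675692 counts gave each member at least 138 counts. The same replicate numbers did not mark hearts that deviated together.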

Additional observations from a re-analysis of the deposited data

How the results depend on the processing

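The number of calls depended on the tool, the filter and single hearts. Over all genes edgeR called 0 higher and 0 lower, DESeq2 called 436 and 564, edgeR without the filter on low counts 262 and 341, and edgeR with the replicate block 1 and 13. Deviations of hearts with the same number correlated at 0.0093, -0.116 and -0.094, so hearts of the same number did not deviate together. The study's methods report littermate controls. Which hearts shared a litter is not known here, and these few correlations cannot show it. Leaving out 1 heart gave 0 to 784 higher and 0 to 987 lower calls over both tools, and with edgeR up to 320 and 431, reached without control replicate 1. The DESeq2 fits that leave out a heart, and Nrp2 against the lists other than the pan-endothelial one, were added after seeing the data. Among the members, DESeq2 and edgeR without the filter called 1 lower, Nrp2, with log2 fold changes of -0.49 and -0.47. Its log2 fold change was -0.49 with the replicate block (edgeR adjusted p = 0.147) and ran from -0.57 to -0.38 when 1 heart was left out. Without 1 heart, member log2 fold changes that turned sign ran from -0.26 to 0.018 for Vegfa, -0.18 to 0.062 for Vegfb, -0.22 to 0.024 for Flt1, -0.33 to 0.040 for Flt4 and -0.081 to 0.045 for Nrp1. In the lists, calls lower by DESeq2 and by edgeR without the filter were 6 and 6 for coronary, 3 and 3 for mural, 2 and 2 for lymphatic (1 with the block), for VEGF response and for hypoxia regulators, 2 and 1 for hypoxia-induced, 1 and 1 for cardiomyocyte, 2 by DESeq2 for pan-endothelial and 2 without the filter for erythroid genes. Calls higher were 2 and 2 for epicardial, 2 and 1 for cardiomyocyte, 1 and 1 for mural and for hypoxia regulators, 1 by DESeq2 for VEGF signal transduction, and 1 without the filter for endocardial and erythroid genes. Without 1 heart edgeR called 0 to 7 coronary, 0 to 3 mural, hypoxia regulator and VEGF response, 0 to 2 lymphatic and erythroid genes lower, 0 to 2 endocardial genes higher, and 0 to 1 in the other lists. Of 795 alternatives over all results, 707 kept the direction and the side of the threshold, or stayed within the spread. Of the rest, 69 moved, 12 were reversed and 7 were stronger. The 707 include many call counts that were 0 in the main fit and in the alternative. They also include small differences that changed sign within the spread, so their number does not measure how firm the results are. Counting error weighs most on Pgf, which had 138 counts in the heart where it was lowest.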
